A study of Homo sapiens with 18 samples.

Results

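The alpha- and beta-globin gene clusters hold the genes for the protein chains of haemoglobin. Members were taken as the rows of the deposited gene counts that carry the symbols HBZ, HBM, HBA2, HBA1 and HBQ1 of the alpha cluster and HBE1, HBG2, HBG1, HBD and HBB of the beta cluster. All 10 symbols had a row among 55766 genes, and 9 of them passed the filter on low counts. The exception was HBM, with between 0 and 7 counts per library.

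Haemoglobin is assembled from alpha-type and beta-type globin chains, each of which holds a haem group that binds oxygen. The genes of each cluster are used in turn during development: HBZ and HBE1 code for embryonic chains, HBG1 and HBG2 for the fetal gamma chains, and HBB and HBD for the major and the minor adult beta-type chain. HBA1 and HBA2 code for the same alpha chain of fetal and adult blood. HBM and HBQ1 code for the mu and theta chains, alpha-type relatives whose role in haemoglobin is unclear. Distant enhancers drive both clusters in red cell precursors, the locus control region upstream of HBE1 in the beta cluster and elements inside the neighbouring gene NPRL3 in the alpha cluster. K562 is an established human leukaemia line with erythroid features, known for transcribing embryonic and fetal rather than adult beta-type globin genes.

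The cells of all groups were K562 with a B2M:tdTomato transgene, B2M being the light chain of MHC class I and tdTomato a red fluorescent protein. In the TALE silenced and dCas9 silenced groups, 3 plasmids were delivered together, each coding for a different artificial repressor (named ATR in the labels), with 1 µg of the D3A plasmid and the others in equal molar amounts. The dCas9 cells also received 250 ng of a guide RNA plasmid, and the third group was untreated. RNA-seq and MeDIP-seq, the sequencing of fragments captured by an antibody against 5-methylcytosine, were each run on 3 libraries per group. Nothing in the labels says that the 3 libraries of a group came from separate cultures, so p-values measure the spread between these libraries, which may be technical. The design asks here whether RNA or DNA methylation of loci other than the targeted gene differs between silenced and untreated cells.

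Total counts were between 8460076 and 12050554 per RNA library and between 2529729 and 4492751 per MeDIP library. The targeted gene matched the labels: the entry B2M_tomato had 3115 to 4109 counts in untreated libraries and 128 to 205 in silenced ones, and the entry B2M had 48 to 79 against 2 to 7. Genes of the erythroid K562 list, among them GATA1, TAL1, KLF1 and TFRC, had at least 10 counts in every library. Among the lists of other lineages, 4 of 6 megakaryocyte genes and 4 of 6 myeloid genes had under 10 counts in every library. The remaining megakaryocyte genes were ITGA2B, with 45 to 130 counts, and ITGB3, with 9 to 26. The remaining myeloid genes were LYZ, with 149 to 288, and SPI1, with 281 to 519. The summed myeloid level was 52.2 to 59.9 CPM in untreated, 45.1 to 66.7 in TALE and 60.5 to 73.5 in dCas9 libraries. Of the lymphoid genes, PTPRC and CD3D had counts throughout, while CD3E, MS4A1 and CD79A had 0 to 6 per library. The summed level of that list was 308 to 342 CPM in untreated, 225 to 272 in TALE and 212 to 249 in dCas9 libraries, and its part in the globin values was not tested. Of 7 fibroblast and epithelial genes 5 had at least 10 counts in every library, and the summed level of the list was 746 to 832 CPM in untreated, 767 to 987 in TALE and 894 to 1023 in dCas9 libraries. VIM alone had means of 323, 366 and 437 CPM in these groups. Mitochondrial genes took 4.04% to 14.0% of counts per library, with means of 9.21% in untreated, 5.45% in TALE and 10.3% in dCas9 cells.

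Promoter sequences are shown first because the 2 clusters differed in CpG content, and the MeDIP assay captures CpG only where they are methylated. Of the 10 genes, 2 matched the RefSeq promoter table (GRCh38.p14), HBD of the beta cluster and HBM of the alpha cluster. Both are given 5′ to 3′ on the gene's own strand, as the 250 bases before the transcript start, with each CpG in capitals. HBD lies on the minus strand (chr11:5234484-5234733) and HBM on the plus strand (chr16:165728-165977).
HBD: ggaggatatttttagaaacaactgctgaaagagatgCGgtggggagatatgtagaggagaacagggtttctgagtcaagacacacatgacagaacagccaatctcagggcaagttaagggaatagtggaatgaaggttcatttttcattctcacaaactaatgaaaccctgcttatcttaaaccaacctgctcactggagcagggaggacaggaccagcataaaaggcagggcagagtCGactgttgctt
HBM: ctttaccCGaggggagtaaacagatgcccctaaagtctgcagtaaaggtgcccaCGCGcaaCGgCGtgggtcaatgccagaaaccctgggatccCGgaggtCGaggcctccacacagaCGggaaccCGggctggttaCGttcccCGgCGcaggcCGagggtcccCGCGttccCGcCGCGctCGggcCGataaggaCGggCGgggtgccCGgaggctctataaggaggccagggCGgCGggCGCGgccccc
The HBD stretch held 2 CpG and the HBM stretch 27, against a median of 11 over 35116 RefSeq promoters of the same length.

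Motifs known from globin promoters were searched on both strands of these stretches, with the position of a match's first base counted back from the transcript start. HBD held CCAAT at -153, GATAA on the reverse strand at -78 and ATAAA at -31. HBM held GATAA at -63, CACCC on the reverse strand at -49 and TATAA at -33. CACCC and TATAA had no match in HBD, and CCAAT and ATAAA none in HBM. TATAA and ATAAA can share bases, although the matches here did not. Such matches are common: of all promoters, 32.0% held CCAAT, 54.7% CACCC, 20.4% GATAA, 18.9% TATAA and 32.7% ATAAA.

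The same count could be made for all 10 genes on GRCh37 from GENCODE transcript starts. The 250 bases upstream held 36 CpG at HBA1 and at HBA2, 28 at HBQ1 and 27 at HBM, but 5 at HBZ. In the beta cluster they held 3 at HBG1 and at HBG2, 2 at HBD and at HBE1, and 1 at HBB. Thus, from these starts, the alpha cluster, with the exception of HBZ, had CpG-rich promoters and the beta cluster CpG-poor ones. The HBZ count rests on the start of a canonical transcript of 798 bases, against 502 to 628 in the other genes. Other starts of HBZ were not tried, so the exception may depend on the start taken.

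The clusters lie on different chromosomes. On GRCh37, the alpha genes run along the plus strand of chromosome 16, with HBZ at 202643 to 204502, HBM at 215977 to 216763, HBA2 at 222875 to 223709, HBA1 at 226679 to 227521 and HBQ1 at 230458 to 231178. The beta genes run along the minus strand of chromosome 11, with HBE1 at 5289575 to 5291175, HBG2 at 5274418 to 5276011, HBG1 at 5269499 to 5271087, HBD at 5254068 to 5255713 and HBB at 5246694 to 5248301. Each canonical transcript has 3 exons.

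The 10 genes together took 0.736% ± 0.0223 of all counts in untreated cells, 0.739% ± 0.172 in TALE cells and 0.738% ± 0.148 in dCas9 cells (SD, n = 3). The group means were alike, but the silenced groups spread far wider. TALE libraries 1, 2 and 3 had 0.597%, 0.691% and 0.930%, and dCas9 libraries 0.891%, 0.728% and 0.595%, against 0.713% to 0.758% in untreated cells. The untreated libraries therefore lay inside the range of both silenced groups. In bulk RNA, fewer globin-transcribing cells and less globin RNA per cell cannot be told apart.

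Embryonic and fetal genes held nearly all of these counts. Levels were compared between genes as CPM per kb, that is, CPM after scaling of library sizes with TMM factors, divided by the length of the canonical transcript. Full transcript lengths were used, so the places of HBA1, HBA2, HBG1 and HBG2 also depend on how reads shared between copies were counted. In untreated cells the fetal gene HBG2 led with 6725 ± 440 CPM per kb, followed by the embryonic HBE1 with 2855 ± 88.9 and the fetal HBG1 with 1718 ± 185 (SD, n = 3). The embryonic alpha-type gene HBZ had 590 ± 35.1 and HBA1 420 ± 59.7. The HBZ transcript was the longest, with 798 bases, and a shorter one would raise its value. The other genes were far lower. HBQ1 had 61.1 ± 1.25, HBA2 40.4 ± 4.39, the minor adult gene HBD 14.8 ± 1.87, the adult gene HBB 4.25 ± 0.557 and HBM 0.277 ± 0.249 CPM per kb. By CPM in untreated cells HBG2 ranked 19 among 55766 genes, HBE1 52, HBG1 89, HBZ 258 and HBA1 662, whereas HBB ranked 11389.

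The order of the group means was the same in all 3 groups. Most neighbours in that order had no overlap between libraries of a group, with 3 exceptions. HBZ and HBA1 overlapped in dCas9 cells, at 524 to 891 and 573 to 789 CPM per kb. HBQ1 and HBA2 overlapped in TALE cells, at 43.1 to 66.0 and 31.8 to 48.2, and in dCas9 cells, at 39.4 to 63.4 and 26.4 to 44.9. HBB and HBM overlapped in dCas9 cells, at 0.824 to 2.66 and 0.395 to 1.11.

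**Figure D1:**
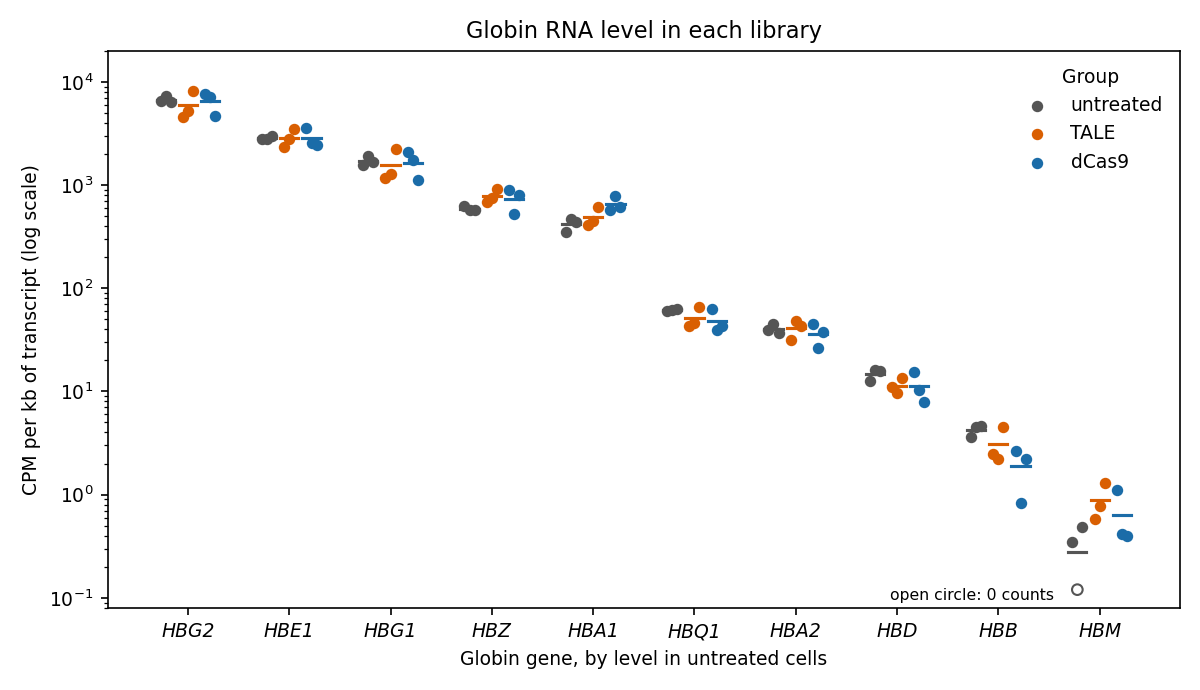
RNA level of the 10 globin genes in each of 9 libraries, in CPM per kb of canonical transcript on a log axis; points are libraries, bars are group means, and an open circle marks a library with 0 counts. HBG2 leads at 6725 CPM per kb in untreated cells and HBM is lowest at 0.277, and the 3 groups overlap for most genes.

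As shares of the globin counts, the gamma genes made up 65.9% ± 1.64 in untreated, 60.9% ± 3.31 in TALE and 62.6% ± 5.30 in dCas9 cells. HBE1 made up 23.7% ± 1.41, 25.3% ± 2.04 and 23.6% ± 2.63. HBZ made up 6.29% ± 0.614, 8.91% ± 1.04 and 7.99% ± 2.67, and HBA1 with HBA2 made up 3.53% ± 0.339, 4.32% ± 0.283 and 5.44% ± 1.31 (SD, n = 3). Alpha-type genes thus took the smaller part of the globin counts in every group. Reads that fit both copies of the alpha or gamma pair may have been lost in counting, which would lower the share of that pair. These shares were not tested.

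The alpha pair and the gamma pair are near-identical copies, so the counts of their members, and of each pair as a whole, are uncertain. Of the 50-base stretches of the HBA1 transcript, 18.4% occurred in no other globin transcript, and the other 431 of 528 were also in HBA2. For HBG1 the unique share was 32.3%, with 364 stretches shared with HBG2. HBB and HBD each had at least 97.0% unique stretches and HBE1 99.8%, while HBZ, HBM and HBQ1 shared none. How the authors assigned reads that fit both copies of a pair is not given in the sources used here.

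HBG2 held a near-constant share of the gamma pair, between 78.6% and 80.8% in the 9 libraries. The share was 79.7% ± 0.886 in untreated, 79.3% ± 0.753 in TALE and 80.0% ± 1.1 in dCas9 cells. Between groups the difference was at most 0.674 percentage points in size, TALE below dCas9, with a two-sided exact permutation p of 0.4. HBG2 counts were 3.67 to 4.22 times those of HBG1.

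HBA1 held 90.1%, 91.2% and 92.2% of the alpha pair in untreated libraries 1, 2 and 3, and 92.8%, 90.3% and 93.4% in the TALE libraries. In the dCas9 libraries it held 92.7%, 96.8% and 94.2%, each above all 3 untreated ones. The mean difference of dCas9 from untreated was 3.39 percentage points, with a two-sided exact permutation p of 0.1, the smallest that 3 libraries against 3 allow, and an adjusted p of 0.6 over the 6 comparisons of pair shares. Library 2 of the dCas9 group had the highest ratio of HBA1 to HBA2 counts, 29.9, and untreated library 1 the lowest, 9.08.

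**Figure D2:**
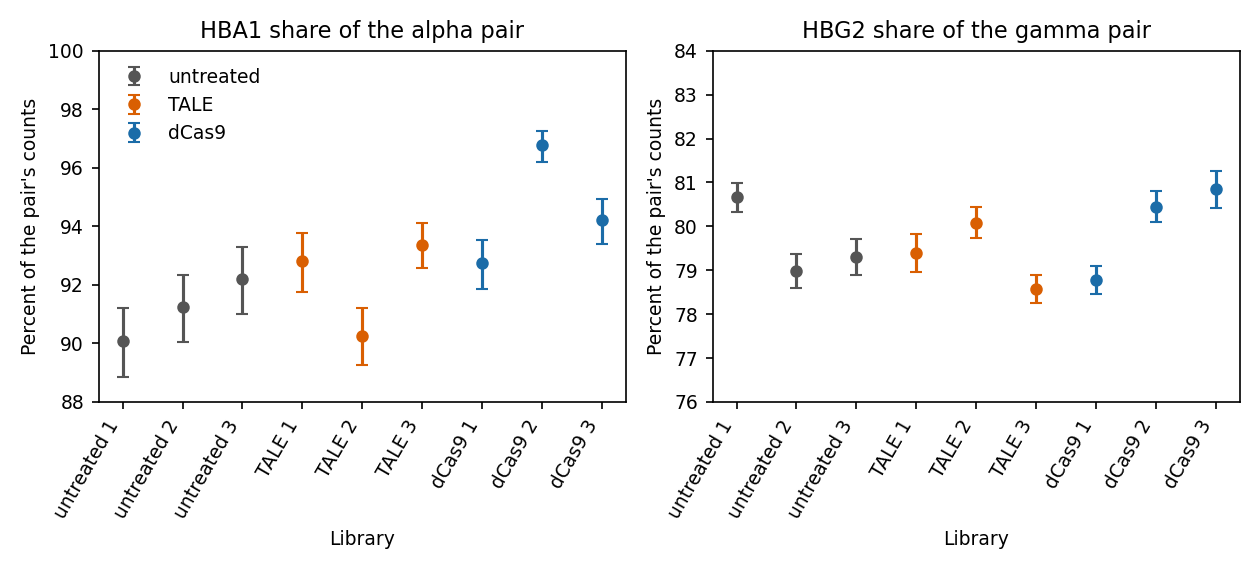
Share of HBA1 in the counts of the alpha pair (left) and of HBG2 in the counts of the gamma pair (right) for each library, in percent on axes that do not start at 0, with exact 95% binomial intervals that cover counting error only. The HBA1 share runs from 90.1% to 96.8% and is highest in dCas9 library 2, whereas the HBG2 share stays between 78.6% and 80.8%.

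Silenced and untreated cells were compared gene by gene with edgeR's quasi-likelihood test, adjusted over 13786 genes. In none of the comparisons was a globin gene called at an adjusted p under 0.05: TALE against untreated gave 0 of 9, where 0.0218% of all genes were called, and dCas9 against untreated gave 0 of 9, where 0.029% were. TALE against dCas9 also gave 0 of 9 (0% of all genes), as did both silenced groups against untreated (0.0363%). DESeq2 called 0 globin genes in each of the 4 comparisons as well. Below an unadjusted p of 0.05 in edgeR lay 1 globin gene in TALE cells (7.15% of all genes), 2 in dCas9 cells (5.93%), 1 between TALE and dCas9 (6.38%) and 3 in both silenced groups (6.35%). The comparisons of TALE and of dCas9 with untreated share the untreated libraries, so their values for a gene are not independent.

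The data bounded the size of most differences. In each comparison, 8 of 9 globin genes had a 95% interval of the fold change within 2-fold either way, HBB being the exception. The median log2 fold change of the 9 genes was -0.14 for TALE and -0.07 for dCas9, against 0.00 over all genes tested in both. Groups did not overlap in CPM for 1 of 9 genes in TALE against untreated (12.5% of all genes), for 2 of 9 in dCas9 against untreated (11.6%) for 0 of 9 in TALE against dCas9 (9.38%) and for 0 of 9 in both silenced groups against untreated (3.54%).

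**Figure D3:**
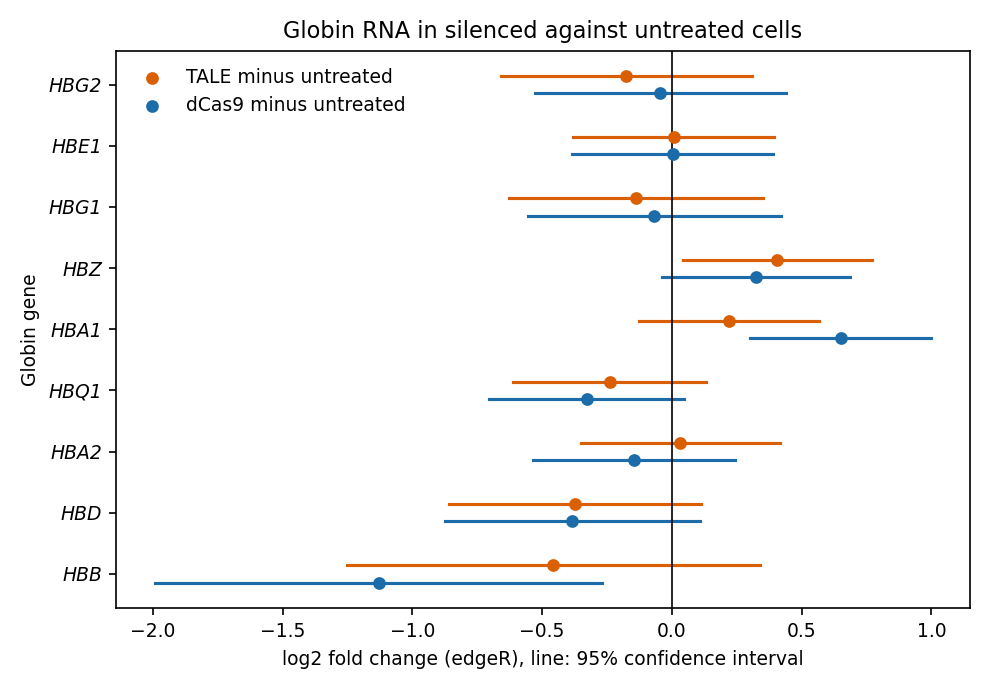
Log2 fold change of the 9 tested globin genes for TALE minus untreated and dCas9 minus untreated, from edgeR, with 95% confidence intervals as lines. Most intervals cross 0; those of HBZ in TALE cells and of HBA1 and HBB in dCas9 cells do not, with adjusted p-values of 0.649, 0.262 and 0.639.

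Among the embryonic genes, HBE1 lay at 1736, 1759 and 1841 CPM in untreated libraries 1 to 3, at 1467, 1726 and 2173 in TALE and at 2241, 1592 and 1516 in dCas9 libraries. The untreated libraries sat in the middle of a wide silenced range. Log2 fold changes of HBE1 were 0.01 for TALE (fold interval 0.769 to 1.32) and 0.00 for dCas9 (0.766 to 1.31). HBZ, the embryonic alpha-type gene, lay at 503, 456 and 453 CPM in untreated, 548, 595 and 730 in TALE and 711, 418 and 639 in dCas9 libraries. All TALE libraries were above all untreated ones, while dCas9 library 2 was below them. For HBZ the log2 fold change was 0.41 in TALE cells (SE 0.173, edgeR adjusted p = 0.649) and 0.32 in dCas9 cells (SE 0.173, adjusted p = 0.885). TALE and dCas9 differed by 0.08 for this gene (adjusted p = 0.953).

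The fetal genes were both highest in the same library. HBG2 lay at 3808, 4238 and 3777 CPM in untreated, 2644, 3024 and 4800 in TALE and 4507, 4211 and 2749 in dCas9 libraries. HBG1 lay at 913, 1127 and 986 CPM in untreated, 686, 752 and 1309 in TALE and 1214, 1023 and 651 in dCas9 libraries. That library was TALE library 3, and each group overlapped the others. The log2 fold change of HBG2 was -0.18 in TALE cells (fold interval 0.633 to 1.24) and -0.04 in dCas9 cells (0.693 to 1.36), and that of HBG1 was -0.14 and -0.07. With the pair summed into 1 row, the log2 fold change was -0.17 for TALE and -0.05 for dCas9.

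HBA1 had more counts than its near-identical copy HBA2 in every library, under a counting rule that is not given. HBA1 lay at 204, 272 and 250 CPM in untreated, 236, 257 and 352 in TALE and 330, 455 and 354 in dCas9 libraries. All dCas9 libraries were above all untreated ones, and the TALE libraries overlapped both groups. Relative to untreated cells HBA1 was at 0.65 on the log2 scale in dCas9 cells (SE 0.166), or 1.57-fold with an interval of 1.23 to 2.0 (edgeR adjusted p = 0.262). It was 0.22 in TALE cells (SE 0.165, adjusted p = 0.806), and TALE minus dCas9 was -0.43 (SE 0.165, adjusted p = 0.745). Without the filter on low counts the dCas9 value was 0.66 and passed the threshold in edgeR, with an adjusted p of 0.00321; with DESeq2 the adjusted p was 0.0634. Over all alternatives the adjusted p ran from 0.00321 to 0.885.

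HBA2 lay at 22.5, 26.1 and 21.2 CPM in untreated, 18.3, 27.7 and 25 in TALE and 25.9, 15.2 and 21.8 in dCas9 libraries, with all groups overlapping. Library 2 of the dCas9 group was thus the highest library for HBA1 and the lowest for HBA2. That library also had the highest mitochondrial share of counts, 14.0%, against 6.15% and 10.8% in dCas9 libraries 1 and 3. The summed level of the fibroblast and epithelial list was also higher in all dCas9 than in all untreated libraries. Its members did not move together: dCas9 means were above untreated ones for VIM (437 against 323 CPM), KRT18 (243 against 214), KRT8 (161 against 140) and EPCAM (104 against 102). They were below for COL1A1, COL1A2 and COL3A1. The summed myeloid level was likewise higher in all dCas9 than in all untreated libraries. The part of the mitochondrial share or of these 2 lists in the HBA1 difference was not tested. With HBA1 and HBA2 summed into 1 row, the log2 fold change was 0.60 in dCas9 cells (SE 0.160, edgeR adjusted p = 0.337) and 0.20 in TALE cells.

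The theta gene HBQ1 lay at 31.6, 32.3 and 32.9 CPM in untreated, 22.7, 24.4 and 34.8 in TALE and 33.5, 20.8 and 22.6 in dCas9 libraries. The untreated libraries were close together, and 1 library of each silenced group lay above them. On the log2 scale the differences were -0.24 for TALE and -0.33 for dCas9, with adjusted p-values of 0.805 and 0.896 in edgeR. HBM, the mu gene, had 2, 0 and 2 counts in untreated, 3, 5 and 7 in TALE and 6, 2 and 2 in dCas9 libraries. It failed the filter, and no difference was tested at this depth.

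The adult beta-type genes were near the lower end of what these libraries measured. HBB had 26, 23 and 24 counts in untreated, 16, 18 and 31 in TALE and 18, 5 and 14 in dCas9 libraries. In CPM this was 2.27, 2.84 and 2.90, then 1.57, 1.39 and 2.87, then 1.67, 0.518 and 1.39. All dCas9 libraries were below all untreated ones, whereas TALE library 3 was at the untreated level. The log2 fold change of HBB was -1.13 in dCas9 cells (SE 0.409, edgeR adjusted p = 0.639) and -0.46 in TALE cells (SE 0.378, adjusted p = 0.831). Without dCas9 library 2, which had 5 counts, the dCas9 value was -0.79.

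HBD, the minor adult gene, had 90, 81 and 80 counts in untreated, 70, 77 and 91 in TALE and 104, 62 and 49 in dCas9 libraries. Its CPM ran from 7.85 to 10.0 in untreated, 5.93 to 8.43 in TALE and 4.86 to 9.64 in dCas9 cells, with all groups overlapping. For HBD the log2 fold change was -0.37 for TALE (adjusted p = 0.773) and -0.38 for dCas9 (adjusted p = 0.909, edgeR). HBBP1, a beta-type pseudogene between HBD and HBG1, had 147 to 355 counts per library and log2 fold changes of 0.05 and -0.30.

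No library was highest for all globin genes. TALE library 3 was the highest for 4 of 9, namely HBG1, HBG2, HBZ and HBQ1, and dCas9 library 2 was the lowest for 4 of 9, namely HBA2, HBB, HBZ and HBQ1. The highest library exceeded the lowest by 1.53 times for HBE1 and by 5.61 times for HBB, with the other genes between. The genes outside the clusters whose log2 CPM followed the mean log2 CPM of the 9 globin genes most closely over 9 libraries were RP11-36C20.1 (Pearson r = 0.977), JTB (0.966), SLC25A5 (0.964), TOMM20 (0.961) and RPL15P3 (0.961). All points share the libraries' depth and scaling, and these genes were picked as the highest of all tested.

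The genes that regulate the clusters or supply haem were read beside them. Of 20 globin regulators, 19 were tested, and both edgeR and DESeq2 called 0 in all 4 comparisons. Under an unadjusted p of 0.05 in edgeR were 2 in TALE against untreated (7.15% of all genes), 0 in dCas9 against untreated (5.93%), 1 in TALE against dCas9 (6.38%) and 1 in both silenced groups (6.35%). The untested regulator was BCL11A, the repressor of fetal globin in adult red cells, with 0 to 5 counts per library. The smallest p-values for both silenced groups belonged to LMO2, a bridging subunit of the erythroid complex around GATA1 and TAL1, with a log2 fold change of 0.30 (edgeR adjusted p = 0.737), and to MBD2, a reader of methylated DNA, with 0.25 (adjusted p = 0.804). The median over the regulators was 0.12 for TALE and 0.05 for dCas9.

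Of 13 genes of haem synthesis and haemoglobin assembly, 12 were tested, and both edgeR and DESeq2 called 0 in all 4 comparisons, with 0 below an unadjusted p of 0.05 in edgeR. AHSP, the chaperone of free alpha chains, had a log2 fold change of 0.29 for both silenced groups (adjusted p = 0.823), and PPOX, an enzyme of haem synthesis, 0.17 (adjusted p = 0.905). The distant relatives MB, CYGB and NGB, coding for myoglobin, cytoglobin and neuroglobin, had 0 to 3 counts per library.

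No neighbour of the clusters was called by edgeR or DESeq2 in the 4 comparisons, and below an unadjusted p of 0.05 in edgeR lay 1 of 8 alpha neighbours in TALE against dCas9 (6.38% of all genes) and 0 elsewhere. Beside the alpha cluster 8 of the 11 genes with a row were tested, led for both silenced groups by AXIN1, a scaffold of Wnt signalling, with -0.15 (adjusted p = 0.867), and RHBDF1, with -0.23 (adjusted p = 0.930). Beside or within the beta cluster 6 of 13 listed genes were tested, HBBP1 among them, led by the olfactory receptor genes OR51B5, with -0.45 (adjusted p = 0.855), and OR51B4, with -0.21 (adjusted p = 0.861).

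DNA methylation of the clusters was read from the deposited MeDIP regions. Windows reached from 50 kb before to 50 kb after the outermost genes, 128.536 kb around the alpha cluster (chr16:152643-281178) and 144.482 kb around the beta cluster (chr11:5196694-5341175). The alpha window held 36 regions, of which 33 passed the filter on low counts, and the beta window 17, of which 4 passed. A region enters the table through captured fragments, so low coverage can mean little methylation or few CpG to methylate, and these cannot be told apart here. Coverage also depends on how regions were drawn. In the alpha window they covered 16778 bases, whereas the peaks the authors called covered 25865 to 44734 per library. In the beta window regions covered 5899 bases and peaks 4536 to 9392. The part of this in the coverage, gaps and distances below was not tested.

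Most beta genes lay in a stretch with few captured regions. Between HBB and HBE1, regions covered 595 bases of 44.482 kb, or 1.34% of the span, against 8.04% between HBZ and HBQ1. The longest gap between regions ran from 5247995 to 5284075 on chromosome 11, 36.1 kb, and held the starts of HBB, HBD, HBG1 and HBG2. Of 198815 gaps between regions, 94.9% were shorter, with a median of 3.41 kb. A peak called in TALE library 3 alone nevertheless lay over the start of HBB in this gap. CpG were also sparse there: the beta span had 286, or 0.643 per 100 bases, of which 2.45% lay in regions, and the alpha span had 1193, or 4.18 per 100 bases, with 12.6% in regions. Genome-wide, 7.81% of CpG lay in regions.

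Gene starts differed widely in their distance to the nearest region. HBM had a region over its start, HBB one at 0.307 kb, HBZ at 0.809 kb, HBA2 at 1.105 kb, HBQ1 at 1.16 kb and HBE1 at 1.259 kb. HBA1 was 2.307 kb from the nearest, HBD 7.719 kb, HBG2 8.065 kb and HBG1 12.989 kb. Thus 6 of 10 starts had a region within 2 kb, against 42.9% of 19894 protein-coding starts, and 1 of 10 a region over the start, against 1.28%.

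**Figure D4:**
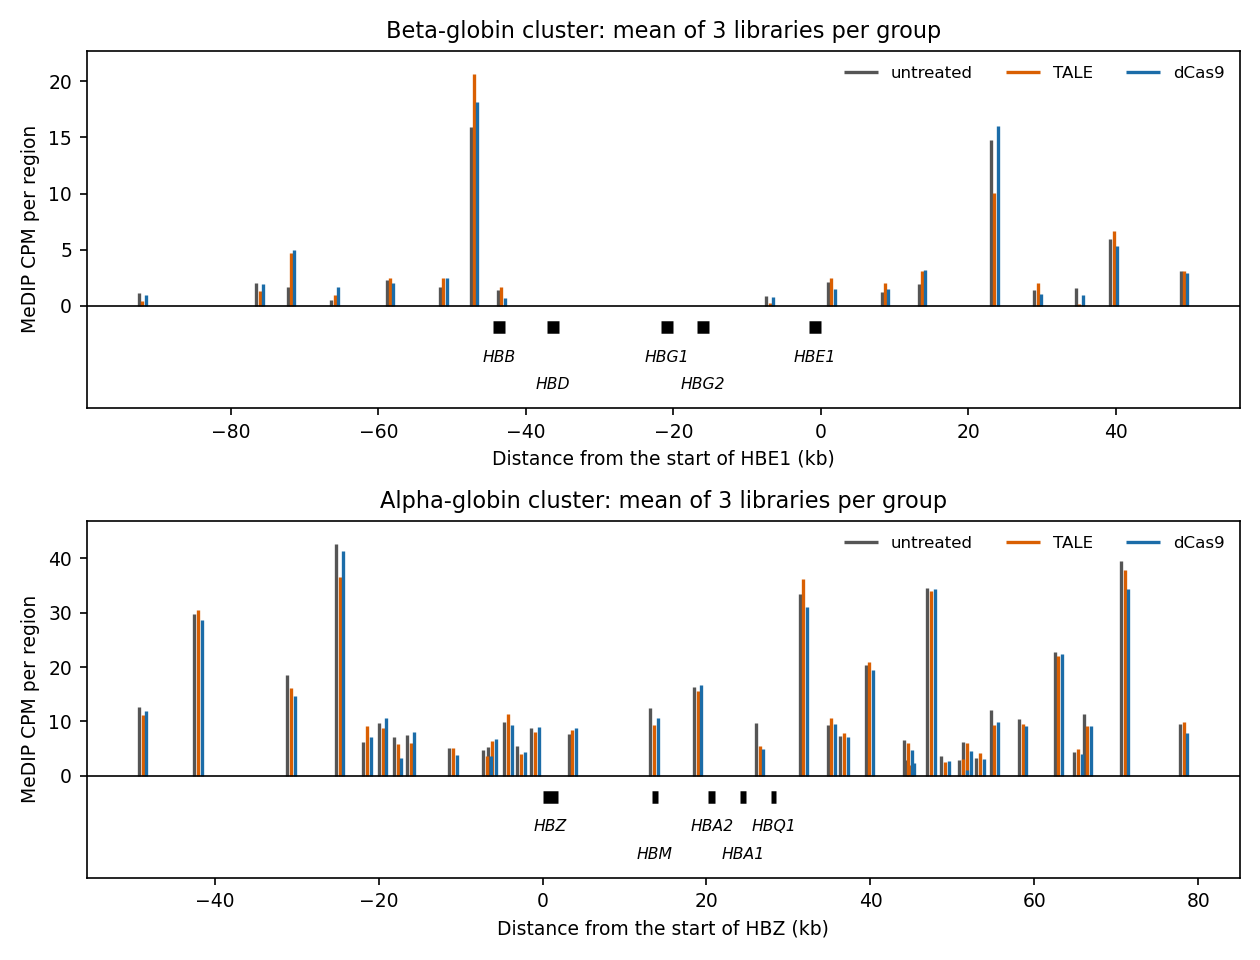
MeDIP level in CPM of each region in the windows of the beta cluster (top) and the alpha cluster (bottom), as the mean of 3 libraries per group, against the distance from the start of HBE1 or HBZ in kb; black boxes are the globin genes, and each region is drawn as 3 lines at its centre. The starts of HBB, HBD, HBG1 and HBG2 sit in a gap of 36.1 kb between regions, with HBE1 outside it, and the alpha genes among 4 regions, of which the one upstream of HBA2 is the highest with a mean of 16.3 CPM.

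The region over HBM was long and CpG-rich. It covered chr16:215562-216878 on GRCh37, that is, the promoter and the whole gene with its 3 exons, and held 109 CpG. The 250 promoter bases printed above matched GRCh37 at 215727 to 215976, and all 250 lay inside it, whereas the HBD stretch, at 5255714 to 5255963 on chromosome 11, met no region. Over HBM the MeDIP level was 13.8, 11 and 12.8 CPM in untreated, 10.6, 8.64 and 8.79 in TALE and 11.5, 10.4 and 9.93 in dCas9 libraries. The untreated libraries were the higher ones, with an overlap between untreated library 2 and dCas9 library 1. Both silenced groups against untreated differed by -0.35 on the log2 scale (SE 0.241), with an adjusted p of 1.00 in edgeR.

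In no comparison was a region of either window called by edgeR: 0 of 37 for TALE against untreated (0% of 105652 regions called), dCas9 against untreated (0.000947%), TALE against dCas9 (0.000947%) and both silenced groups against untreated (0%). An unadjusted p under 0.05 was reached by 1, 2, 0 and 2 of the 33 alpha regions and by 1, 1, 1 and 1 of the 4 beta regions in these comparisons, against 4.74%, 4.69%, 4.47% and 4.88% of all regions. The median log2 fold change of the alpha regions for both silenced groups was -0.13, with 25 of 33 negative, against -0.01 over all regions, with 53887 of 105652 negative. For the beta regions it was 0.12, with 2 of 4 negative. Regions of a window come from the same libraries, so their signs are not independent, and these counts of signs were not tested.

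Of the tested regions next to other starts, those of HBA2 and HBZ differed least between both silenced groups and untreated. Upstream of HBA2, chr16:221346-221770 had a log2 fold change of -0.05 for both silenced groups, and upstream of HBZ, chr16:201581-201834 had -0.04. The region 1.16 kb upstream of HBQ1, chr16:228986-229298, had the smallest p of the alpha window. Its level was 9.83, 12.7 and 6.54 CPM in untreated, 6.93, 5.89 and 3.85 in TALE and 5.53, 6.49 and 3.02 in dCas9 libraries, with an overlap of the third untreated library and TALE library 1. For both silenced groups this gave -0.85 on the log2 scale (SE 0.304), with an adjusted p of 1.00 in edgeR. The next smallest p in the window was at chr16:184846-185139, 17504 bases upstream of HBZ, with -0.69.

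In the beta window the smallest p belonged to a distal region 28820 bases downstream of the start of HBB, chr11:5219185-5219481, with 13 CpG. It had 6, 3 and 6 counts in untreated, 12, 5 and 24 in TALE and 12, 19 and 12 in dCas9 libraries. Scaled for depth, silenced libraries had 1.96 to 6.59 and untreated ones 1.27 to 1.87 CPM. The share of all regions without overlap between these groups was not counted. The region was picked by its p in this comparison, so its lack of overlap adds no support. It had a log2 fold change of 1.5 for both silenced groups (SE 0.492), and edgeR gave an adjusted p of 1.00. The rule also named chr11:5243283-5244972, 3329 bases downstream of the start of HBB, with 0.29. The region inside HBB, chr11:5247691-5247994, over part of exon 2 and of the next intron, had 0 to 12 counts per library and the region upstream of HBE1, chr11:5292434-5292709, had 2 to 10, and neither passed the filter.

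The peak lists that the authors called in each library separately were read at the same starts. A peak lay within 2 kb of the start of HBA2 in 9 of 9 libraries, of HBZ in 8 and of HBQ1 in 7. It did so for HBE1 in 3 libraries and for HBB in 2, and for HBA1, HBD, HBG1 and HBG2 in 0. At HBB 1 peak lay over the start, in TALE library 3, with a fold enrichment of 6.66. At HBM a peak was called in 2 libraries, both untreated and both over the start, and a call per library also moves with its depth and enrichment. Per library the alpha window held 20.8 ± 2.64 peaks and the beta window 8.33 ± 2.0 (SD, n = 9). With a −log10 q of at least 5 the order turned, with means of 0.667 in the alpha and 2.44 in the beta window.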

How the data were processed

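Per the submitters' processing notes, reads were processed on hg19 with STAR 2.3.0, BWA 0.7.5, Picard, MACS2 and bedtools; the annotation, the use of strand and the rule for reads that fit several genes are not given in the sources used here. The deposited tables hold raw counts per gene symbol and per MeDIP region, and the authors' peak lists, called per library, give a score, a fold enrichment and the −log10 q of each peak. Depth is given with the results.

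Both count tables went through the quasi-likelihood test of edgeR 4.0.16 (R 4.3.3; glmQLFit, TMM factors, filterByExpr with a minimum of 10 counts, 1 model of group means over all 9 libraries of an assay, Benjamini-Hochberg over all features, threshold 0.05). "Both silenced groups" is the mean of the TALE and dCas9 coefficients, and the filter left 13786 genes and 105652 regions. DESeq2 1.42.0 was an alternative. Pair shares were compared by exact permutation. Scripts were checked on simulated data with 200 changed features per assay, for TALE against untreated. For RNA, 96% of 2-fold and 100% of 4-fold changes were called, with 17 false calls among 13786 genes. For MeDIP these were 85% and 100%, with 12 false calls among 105652 regions. Changed features were drawn from the deeper ones only, so recovery at low counts was not checked.

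GENCODE v44 on GRCh37 gave starts and lengths, from Ensembl canonical transcripts, since longer transcripts stretch some genes over neighbours. Of the 69 sequence names of the regions, 25 were in that reference and 0 regions passed a sequence's end. HBD overlaps HBBP1 in the annotation. The members and gene lists were chosen with earlier results of these data known. Named beyond the globin genes were the 2 members per list and regions per window with the smallest p for both silenced groups, regions near gene starts, and the 5 genes most alike.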

Additional observations from a re-analysis of the deposited data

How the results depend on the processing

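Of 123 counts of calls under alternatives (RLE factors, library totals alone, library sizes without the globin genes, other filters, a replicate block, only the groups compared, DESeq2, summed pairs, 20 kb flanks, each library left out), 122 stayed as reported; the exception was the test without a filter, with 1 globin gene called in dCas9 against untreated, HBA1. Without a filter the number of all genes called rose to 74 from 3 in TALE against untreated, 89 from 4 in dCas9 against untreated, 77 from 0 in TALE against dCas9 and 79 from 5 for both silenced groups; the cause was not tested. Of 499 fold changes 24 turned sign. HBE1 in dCas9 cells was -0.0083 with library totals alone and -0.0020 with only the groups compared, and in TALE cells -0.0051 with at least 10 counts in every library. Leaving out 1 library at a time, the log2 fold change against untreated ran from -0.10 to 0.19 for HBA2 in TALE and -0.33 to 0.038 in dCas9, from -0.15 to 0.13 and -0.20 to 0.11 for HBE1, from -0.49 to 0.032 and -0.27 to 0.15 for HBG1, and from -0.18 to 0.15 for HBG2 in dCas9. HBZ in TALE against dCas9 ran from -0.11 to 0.24, and for both silenced groups the region upstream of HBZ from -0.24 to 0.10 and that upstream of HBA2 from -0.19 to 0.066. Among left-out libraries, the number of all genes called moved most without TALE library 3, to 16 from 3 in TALE against untreated and to 33 from 5 for both silenced groups, and without dCas9 library 1, to 21 from 0 in TALE against dCas9; 0 globin genes were called in each case. DESeq2 called 13 of all genes in dCas9 against untreated and 16 for both silenced groups. With a −log10 q of at least 5, the alpha window held 0.667 peaks per library and the beta window 2.44, which turns the order of the windows. With the replicate block, 0 globin genes were called in each comparison and HBA1 in dCas9 cells was 0.65; same-numbered RNA libraries correlated between -0.284 and 0.103, 1 of 9 pairs over 0.1 and 2 libraries best with their own number, so the numbers were not taken as pairs. The depth limits HBB and HBM, with at most 31 and 7 counts per library.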
